A study of Mus musculus with 18 samples.

Results

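The genes described here are the semaphorins, plexins and neuropilins of the mouse, read in alphaTC1 cells, a line of pancreatic alpha cells, after knockdown of the splicing factor Smndc1. They were taken by gene symbol from the protein-coding rows of the deposited tables: 31 genes of 55487, made up of 20 semaphorins (7 of class 3, 6 of class 4, 2 of class 5, 4 of class 6 and 1 of class 7), 9 plexins (4 of type A, 3 of type B, 1 of type C and 1 of type D) and 2 neuropilins. A filter on low counts kept 28 of the 31 genes for testing in the first of 2 experiments and 29 in the second. Nrp1 and Sema3c were tested in neither, and Sema3d was tested in the second experiment alone.

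The 18 libraries of RNA form 5 groups in the 2 experiments. In the first, alphaTC1 cells carried an shRNA against Smndc1 (shSmndc1, 3 libraries) or an empty vector (EV, 3 libraries), and the series describes cells 5 days after transduction. In the second, cells carried the RIP-mCherry reporter, a fluorescent protein behind the rat insulin promoter. Knockdown cells were sorted into reporter-positive cells (4 libraries) and reporter-negative cells (4 libraries), and the controls had the empty vector with the reporter (EV_RIP, 4 libraries). The labels name 1 cell line, give no day for the second experiment, and do not say whether EV_RIP cells passed through the sorter. Nor do they state that replicates came from separate cultures, and the p-values therefore reflect library-to-library spread that may be purely technical.

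Semaphorins are guidance signals that share a sema domain. Those of class 3 are secreted, the others listed here sit in or on the membrane, and plexins are their receptors. Plexins carry a cytoplasmic domain that acts on Rap and R-Ras GTPases, and most class 3 semaphorins need a neuropilin beside the plexin. The system is known from axon guidance, blood vessel patterning and immune cells, and neuropilins also bind members of the VEGF family. Alpha cells lie in islets among capillaries and nerve endings, the classical targets of these signals.

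Total counts per library ran between 37233208 and 66676008 in shSmndc1, 40781919 and 53455167 in EV, 34045268 and 48138634 in positive cells, 8084574 and 80757285 in negative cells, and 49345067 and 103048766 in EV_RIP. Smndc1 checked the labels: its level in CPM (counts scaled to library size) was 9.52 to 10.5 in shSmndc1 and 35.1 to 41.9 in EV, and it was 16.0 to 25.2 in positive cells, 23.9 to 44.6 in negative cells and 37.6 to 54.9 in EV_RIP. The groups overlapped for negative cells and EV_RIP (log2 fold change -0.27, adjusted p = 0.378 by edgeR), so the negative cells as a group did not show the knockdown past the threshold. Of 8 alpha cell markers 7 averaged over 1 CPM in every group, and their summed level was 5815 to 21081 CPM. Some libraries stood apart. Negative replicates 3 and 4 had 161 and 45.4 CPM of Rn7sk, a small nuclear RNA that is not polyadenylated, against 2.44 to 18.6 CPM in the other 16 libraries. Malat1, a nuclear RNA, had 1083 CPM in shSmndc1 replicate 3 and 109 to 688 CPM elsewhere. EV_RIP replicate 1 had 0.587% of its counts on mitochondrial genes, where the other 17 libraries had 2.34% to 4.76%. In EV_RIP replicate 4, 22 of 11119 genes, Sema3a among them, were under 0.1 times the lowest other control, where each of the other 3 controls had 0 such genes.

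Levels of different genes were compared as FPKM, which divides counts by gene length. Plexins were led by Plxnb2, a receptor for class 4 semaphorins, which averaged 42.7 ± 11 FPKM in shSmndc1 and 24.5 ± 1.5 FPKM in EV (SD, n = 3 each). It held 57.0% of the summed FPKM of the 9 plexins in shSmndc1 and 51.2% in EV. Plxna1, which binds Sema6d and, with neuropilins, class 3 semaphorins, came next at 14.6 ± 5.2 FPKM in shSmndc1 and 9.90 ± 2.5 FPKM in EV. Among the semaphorins Sema6d, a transmembrane ligand, averaged 11.9 ± 2.2 FPKM in shSmndc1 and 18.5 ± 2.4 FPKM in EV, followed by Sema4c, a transmembrane ligand of Plxnb2, at 9.72 ± 1.7 FPKM in shSmndc1 and 7.60 ± 0.46 FPKM in EV. Sema6d made up 23.2% of the summed semaphorin FPKM in shSmndc1, against 40.5% in EV. The second experiment had a like makeup, with Sema6d at 24.9% in positive cells, 32.0% in negative cells and 37.4% in EV_RIP. Depending on the group, 15 to 18 of the 31 genes averaged over 1 FPKM.

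The 2 neuropilins stood far apart. Nrp2, the receptor subunit for Sema3f, averaged 1.93 ± 0.28 FPKM in shSmndc1 and 1.63 ± 0.82 FPKM in EV, and 0.897 ± 0.42 FPKM in positive cells, 0.797 ± 0.39 FPKM in negative cells and 1.14 ± 0.59 FPKM in EV_RIP (SD, n = 4 each). Nrp1, the subunit that binds Sema3a, had 12 counts over all 18 libraries and 0 in 10 of them. Sema3c, a secreted ligand, had 3 counts in all and 0 in 15 libraries. A count of 0 allows up to 0.0294 CPM in the deepest library and 0.361 CPM in the shallowest, which covers counting error only.

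**Figure D1:**
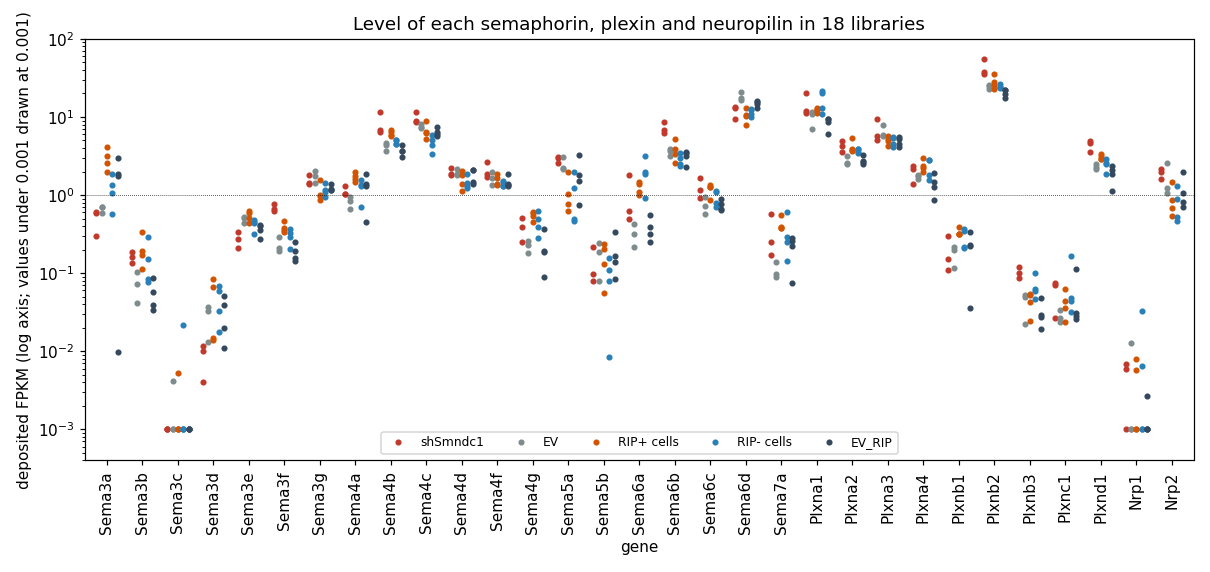
Deposited FPKM (log axis, values under 0.001 drawn at 0.001) of the 31 genes in each of the 18 libraries, coloured by group; the dotted line marks 1 FPKM. Plxnb2 is the highest in every group, Nrp1 and Sema3c lie at the bottom, and Sema3a in 1 EV_RIP library lies far below the others of its group.

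By position (GRCm38), several of the genes are neighbours. Sema3d, Sema3a, Sema3e and Sema3c follow each other on chromosome 5, with gaps of 0.536, 0.423 and 3.32 Mb. Sema3b and Sema3f lie 72.3 kb apart on chromosome 9, and Plxnb3 and Plxna3 lie 557 kb apart on the X chromosome. Of the 31 genes 24 share no exonic base with another gene in the GENCODE annotation. Plxna1 shares 10.7% of its exonic bases with Gm26811, and Sema4c 7.27% with D430040D24Rik, both on the opposite strand. The counting's strand setting is not given in the sources used here, so these values are uncertain to that extent.

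Promoters are shown for Plxnb2, Plxnd1 and Sema6d, which were called in the same direction in both experiments (in shSmndc1 and in positive cells) and have RefSeq start sites that are also GENCODE starts of coding transcripts, with no annotated exon in the window. Each window holds the 250 bases before a start site, 5′ to 3′ on the gene's strand, from RefSeq on GRCm38.p6. Capitals mark a GC box (GGGCGG, searched on both strands) or an EGR motif (GCGNGGGCG, both strands); the 2 motifs can overlap and do so in Plxnb2.
Plxnb2, chr15:89180789-89181038, minus strand: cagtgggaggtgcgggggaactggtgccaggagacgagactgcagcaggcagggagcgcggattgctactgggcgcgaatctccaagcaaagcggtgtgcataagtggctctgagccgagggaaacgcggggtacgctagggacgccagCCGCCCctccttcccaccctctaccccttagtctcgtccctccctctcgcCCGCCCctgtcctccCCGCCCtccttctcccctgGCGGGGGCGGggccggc
Plxnd1, chr6:115995006-115995255, minus strand: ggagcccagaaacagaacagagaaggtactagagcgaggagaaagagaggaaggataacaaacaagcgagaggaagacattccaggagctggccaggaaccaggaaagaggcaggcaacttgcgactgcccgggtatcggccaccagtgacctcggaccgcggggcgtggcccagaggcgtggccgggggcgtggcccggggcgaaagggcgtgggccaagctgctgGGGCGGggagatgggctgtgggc
Sema6d, upstream start, chr2:124089719-124089968, plus strand: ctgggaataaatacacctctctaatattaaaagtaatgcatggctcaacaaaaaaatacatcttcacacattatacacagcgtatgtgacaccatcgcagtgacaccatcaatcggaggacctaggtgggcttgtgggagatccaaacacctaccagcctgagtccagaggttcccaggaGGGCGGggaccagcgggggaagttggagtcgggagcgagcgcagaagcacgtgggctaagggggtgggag
Sema6d, downstream start, chr2:124653331-124653580, plus strand: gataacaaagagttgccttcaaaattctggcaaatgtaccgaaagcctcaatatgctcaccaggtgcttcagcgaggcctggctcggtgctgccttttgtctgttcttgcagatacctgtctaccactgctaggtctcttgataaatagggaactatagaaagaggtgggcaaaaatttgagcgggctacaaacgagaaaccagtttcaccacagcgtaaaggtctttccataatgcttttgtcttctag
GC content was 69.2% in the Plxnb2 window, 64.8% in that of Plxnd1, and 52.4% and 45.2% in the 2 Sema6d windows. GC boxes numbered 4, 1, 1 and 0 in the same order, and the Plxnb2 window held 1 EGR motif. RefSeq has another Plxnb2 start, which matches no GENCODE coding start and is not shown. Its window had 63.6% GC, 3 GC boxes and 0 EGR motifs. RefSeq gave 37 windows of 250 bases for 26 of the 31 genes, among 32851 windows of 27025 genes in all. Median GC content was 64.0% in the 37 windows and 52.4% in all windows. A GC box was found in 27 of the 37 (73.0%) and in 32.7% of all windows, an EGR motif in 5 (13.5%) and in 4.70%, and an AP-1 motif (TGANTCA, both strands) in 3 (8.11%) and in 6.75%. The set of all windows was not limited to protein-coding genes, as the 31 genes were, and some genes have several windows. The part of this in the shares was not tested. A match describes letters in a window, not a bound site.

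The question in the first experiment was which of these genes differ in knockdown cells (shSmndc1) at 5 days. Of the 28 genes tested, 6 were higher in shSmndc1 (Plxnb2, Plxnd1, Plxna2, Sema3f, Sema4b and Sema6b) and 2 were lower (Sema3e and Sema6d). Over all 18202 genes tested, 7.22% were called higher and 7.5% lower. The median log2 fold change of the 28 genes was 0.53, against -0.003 for all genes tested, and 23 of the 28 were above 0, against 49.8% of all genes. The 2 groups did not overlap for 12 genes that were higher and 2 that were lower, where all genes gave 19.7% and 19.8%. In bulk RNA, a change in the share of cells that express a gene and a change per cell cannot be told apart.

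Of the 9 plexins 3 were called, all higher. Plxnb2 (ENSMUSG00000036606, chromosome 15, 89155549 to 89180788) had 237, 247 and 370.0 CPM in shSmndc1, against 167, 149 and 169.8 CPM in EV. Every shSmndc1 library was above every EV library, and shSmndc1 replicate 3 was the highest. Its log2 fold change was 0.81 (SE 0.18, adjusted p = 0.0224 by edgeR). Plxnd1 (ENSMUSG00000030123, chromosome 6, 115954811 to 115995005), a receptor that takes Sema3e without a neuropilin and is best known from blood vessels, had 24.6, 32.2 and 34.5 CPM in shSmndc1, against 17.3, 14.7 and 15.9 CPM in EV. The groups did not overlap, and the log2 fold change was 0.93 (SE 0.16, adjusted p = 0.0104 by edgeR). Plxna2 (ENSMUSG00000026640, chromosome 1, 194618218 to 194816869), a receptor for Sema6a, had 40.2, 47.0 and 55.5 CPM in shSmndc1, against 28.6, 27.5 and 34.9 CPM in EV. These groups did not overlap either, with a log2 fold change of 0.65 (SE 0.15, adjusted p = 0.0276 by edgeR). The other 6 plexins had log2 fold changes of 0.08 to 1.33 that did not pass. Plxna1 had 101, 110.02 and 190.0 CPM in shSmndc1, against 107, 64.1 and 99.0 CPM in EV, so the groups overlapped (log2 fold change 0.57, adjusted p = 0.173 by edgeR).

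Among the ligands, Sema3f (ENSMUSG00000034684, chromosome 9, 107681500 to 107710475), a secreted ligand of Nrp2, showed the largest called change. It had 2.18, 2.30 and 2.74 CPM in shSmndc1, against 1.03, 0.661 and 0.732 CPM in EV, a log2 fold change of 1.57 (SE 0.28, adjusted p = 0.0129 by edgeR). The groups were apart, at a low level. Sema6b (ENSMUSG00000001227, chromosome 17, 56123085 to 56140343), a transmembrane ligand of Plxna4, had 27.1, 25.1 and 35.0 CPM in shSmndc1, against 14.7, 15.3 and 12.7 CPM in EV. All shSmndc1 libraries were above all EV libraries (log2 fold change 1.03, SE 0.16, adjusted p = 0.00875 by edgeR). Sema4b (ENSMUSG00000030539, chromosome 7, 80186841 to 80226527), a transmembrane class 4 ligand, had 27.8, 25.8 and 47.8 CPM in shSmndc1, against 17.6, 18.4 and 15.03 CPM in EV. Here too the groups were apart, and replicate 3 stood highest (log2 fold change 0.99, SE 0.23, adjusted p = 0.0262 by edgeR). Without that library the log2 fold change of Sema4b was 0.65 (adjusted p = 0.0141 by edgeR).

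Of the ligands 2 were lower. Sema6d (ENSMUSG00000027200, chromosome 2, 124089969 to 124667770) had 96.3, 94.2 and 69.5 CPM in shSmndc1, against 121, 152 and 127 CPM in EV. No shSmndc1 library reached the lowest EV library, and the log2 fold change was -0.62 (SE 0.16, adjusted p = 0.0329 by edgeR). Sema3e (ENSMUSG00000063531, chromosome 5, 14025276 to 14256689), the secreted ligand of Plxnd1, had 1.88, 2.31 and 1.47 CPM in shSmndc1, against 3.07, 3.44 and 3.66 CPM in EV. The groups were apart, and the log2 fold change of -0.84 (SE 0.24) lay close to the threshold (adjusted p = 0.0497 by edgeR).

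Some ligands had larger log2 fold changes and did not pass the test. Sema6a (ENSMUSG00000019647, chromosome 18, 47235598 to 47368870), a transmembrane ligand of Plxna2 and Plxna4, had 3.54, 4.54 and 13.2 CPM in shSmndc1, against 2.28, 1.56 and 3.09 CPM in EV (log2 fold change 1.61, SE 0.49, adjusted p = 0.0565 by edgeR). Without shSmndc1 replicate 3 that value was 0.81 (adjusted p = 0.0894 by edgeR). Sema7a, which is anchored to the membrane by a lipid and binds Plxnc1 and integrins, had a log2 fold change of 1.62 (adjusted p = 0.0605 by edgeR), and Sema3b, a secreted ligand, 1.17 (adjusted p = 0.0863 by edgeR). Sema4c had 38.5, 36.6 and 50.9 CPM in shSmndc1, against 31.0, 34.5 and 32.1 CPM in EV, groups that did not overlap (log2 fold change 0.37, adjusted p = 0.12 by edgeR). Nrp2 had 22.9, 20.8 and 17.3 CPM in shSmndc1, against 12.9, 26.6 and 11.2 CPM in EV, which overlapped (log2 fold change 0.26, adjusted p = 0.579 by edgeR). All 20 genes that did not pass had log2 fold changes of -0.39 to 1.62.

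The calls rested on few libraries. Without EV replicate 3, 0 of the 28 genes passed, with 181 genes called over all, and without EV replicate 2 only Sema6b did. Without EV replicate 1, 3 genes were higher and 1 lower. Without shSmndc1 replicate 2 the counts were 5 and 0, and without shSmndc1 replicate 1 or 3 they were 8 and 1 or 7 and 1. Calls over all genes, in either direction, were 12.6%, 2.95% and 0.967% without EV replicates 1, 2 and 3. They were 13.5%, 3.39% and 18% without shSmndc1 replicates 1, 2 and 3. Over these and 4 other settings no called gene changed direction. In shSmndc1 replicate 3, the library with the high Malat1 level, 18 of the 28 genes had their highest shSmndc1 value; the part of this library in the rises was tested only by leaving it out. Some markers of other cell types moved with this comparison. Of the markers tested, 1 leukocyte marker (Csf1r), 1 Schwann cell marker (S100b), 1 acinar marker (Cel) and 2 beta cell markers (Ins2 and Mafa) were higher, and the leukocyte marker Itgam and the neuron marker Snap25 were lower. The 5 leukocyte markers summed to 15.7 to 18.7 CPM in shSmndc1 and 10.4 to 13.6 CPM in EV, nearly all of it Csf1r. Csf1r shares 15.1% of its exonic bases with Hmgxb3 on the opposite strand, and Itgam 68.7% with Gm49368 on the same strand. Itgam had 4, 14 and 1 counts in shSmndc1, against 19, 17 and 34 in EV. Cel and S100b were under 1 CPM in every library of both groups. The summed level of 5 endothelial markers was 1.27 to 2.18 CPM in shSmndc1 and 1.03 to 2.17 CPM in EV, with Emcn at 0 throughout. Esam was called higher among the 3 tested, while Pecam1 and Tek had log2 fold changes of -0.48 and -0.76 and were not called. Of 3 duct markers, Spp1 was higher, and their summed level was 23.1 to 32.9 CPM in shSmndc1 and 12.04 to 16.9 CPM in EV; their part in the results was not tested.

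**Figure D2:**
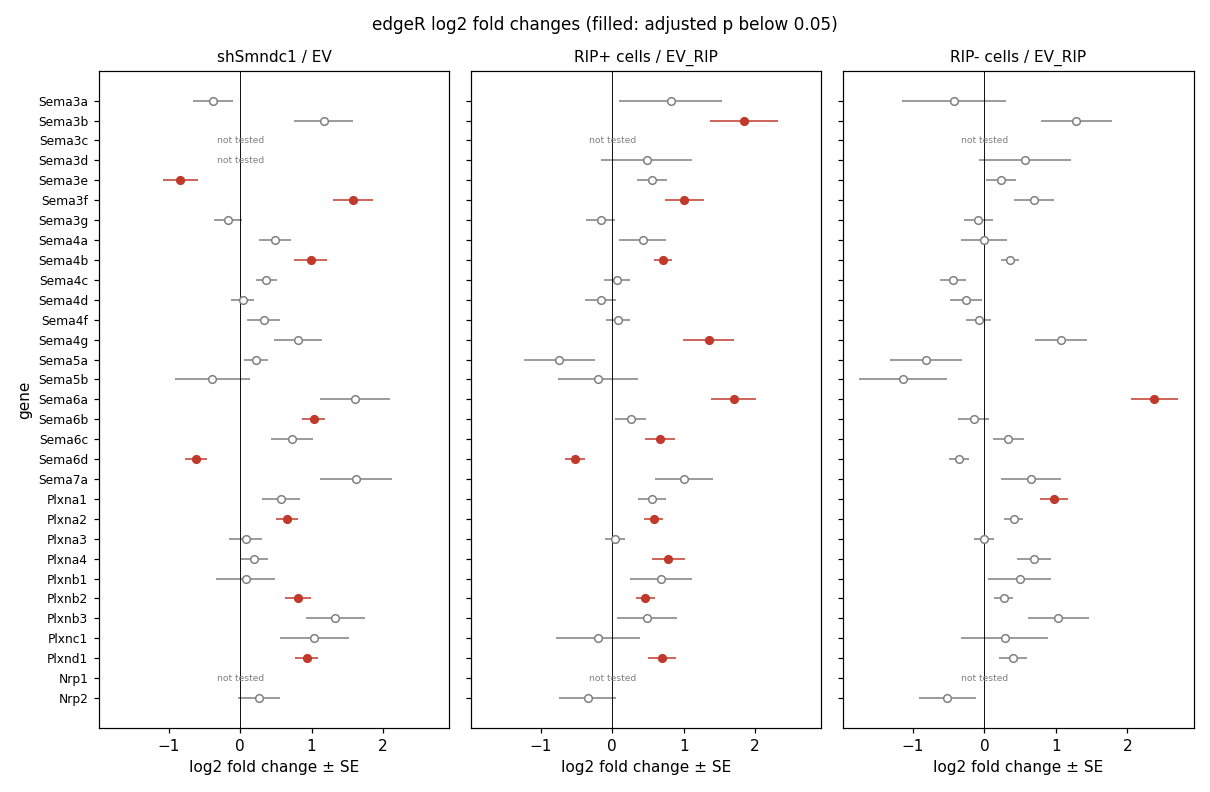
edgeR log2 fold change with its SE (horizontal bar) of each gene in shSmndc1 against EV, positive cells (RIP+) against EV_RIP and negative cells (RIP-) against EV_RIP; filled points have an adjusted p below 0.05. Most points lie right of 0 in the first 2 panels, where Sema6d is the filled point on the left in both and Sema3e is on the left in the first panel.

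The second comparison set reporter-positive knockdown cells against EV_RIP. Of 29 genes tested, 10 were higher (Plxna2, Plxna4, Plxnb2, Plxnd1, Sema3b, Sema3f, Sema4b, Sema4g, Sema6a and Sema6c) and 1, Sema6d, was lower. Over all 18897 genes, 8.47% were called higher and 8.92% lower. The median log2 fold change was 0.49 for the 29 genes and 0.001 for all genes, and 22 of the 29 were above 0, against 50.1% of all genes. The groups did not overlap for 12 genes that were higher and 1 that was lower, where all genes gave 11.7% in each direction.

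Among the receptors 4 plexins were higher. Plxna2 had 59.7, 42.8, 41.3 and 40.9 CPM in positive cells, against 29.4, 30.1, 36.2 and 28.1 CPM in EV_RIP. The groups did not overlap, and positive replicate 1 was well above the others (log2 fold change 0.58, SE 0.13, adjusted p = 0.0127 by edgeR). Plxnd1 had 22.3, 19.7, 22.9 and 19.8 CPM in positive cells, against 12.9, 16.6, 14.6 and 7.97 CPM in EV_RIP. These were also apart (log2 fold change 0.70, SE 0.20, adjusted p = 0.0269 by edgeR). Plxnb2 had 238, 168, 187 and 151 CPM in positive cells, against 146, 146, 132 and 116 CPM in EV_RIP, where the lowest positive library was just above the highest control (log2 fold change 0.46, SE 0.13, adjusted p = 0.0279 by edgeR). Plxna4 (ENSMUSG00000029765, chromosome 6, 32144268 to 32588192), a receptor for Sema6a and Sema6b and, with neuropilins, for Sema3a, had 28.8, 30.5, 25.9 and 38.9 CPM in positive cells, against 16.5, 24.9, 19.0 and 11.4 CPM in EV_RIP. The groups did not overlap, and EV_RIP replicate 4 was the lowest control (log2 fold change 0.79, SE 0.24, adjusted p = 0.036 by edgeR). Plxna1 had 117, 102, 112 and 116 CPM in positive cells, against 78.7, 86.5, 85.0 and 54.5 CPM in EV_RIP; the groups were apart, but the gene did not pass (log2 fold change 0.55, adjusted p = 0.0652 by edgeR).

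Of the class 6 ligands 2 were higher and 1 lower. Sema6a had 9.92, 10.5, 7.85 and 7.21 CPM in positive cells, against 2.77, 3.99, 2.27 and 1.82 CPM in EV_RIP. Every positive library was above every control (log2 fold change 1.70, SE 0.32, adjusted p = 0.0049 by edgeR). Sema6c (ENSMUSG00000038777, chromosome 3, 95160457 to 95174024) had 5.14, 3.53, 5.15 and 5.46 CPM in positive cells, against 2.65, 3.63, 3.13 and 2.69 CPM in EV_RIP. Positive replicate 2 fell among the controls, and the log2 fold change was 0.67 (SE 0.21, adjusted p = 0.0441 by edgeR). Sema6d, the gene lower in both experiments, had 73.9, 75.8, 56.8 and 92.9 CPM in positive cells, against 93.7, 105, 112 and 117 CPM in EV_RIP. The highest positive library was just under the lowest control (log2 fold change -0.52, SE 0.14, adjusted p = 0.0236 by edgeR). Sema6b, called in the first experiment, had 21.03, 13.2, 15.3 and 10.2 CPM in positive cells, against 14.2, 14.0, 12.7 and 9.15 CPM in EV_RIP, groups that overlapped (log2 fold change 0.26, adjusted p = 0.417 by edgeR).

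Class 4 gave 2 calls. Sema4b had 25.6, 27.2, 22.8 and 23.6 CPM in positive cells, against 14.8, 17.97, 14.98 and 12.6 CPM in EV_RIP. The groups lay well apart, with the smallest adjusted p of the 29 genes (log2 fold change 0.71, SE 0.13, adjusted p = 0.00376 by edgeR). Sema4g (ENSMUSG00000025207, chromosome 19, 44989101 to 45003397), a transmembrane ligand of Plxnb2, had 2.08, 2.67, 2.78 and 2.50 CPM in positive cells, against 0.855, 1.70, 0.891 and 0.414 CPM in EV_RIP (log2 fold change 1.35, SE 0.36, adjusted p = 0.0218 by edgeR). These groups did not overlap. Sema4c, the highest class 4 ligand by FPKM, had 38.0, 27.7, 26.7 and 22.2 CPM in positive cells, against 24.3, 27.3, 31.7 and 25.9 CPM in EV_RIP, which overlapped widely (log2 fold change 0.07, adjusted p = 0.818 by edgeR).

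The secreted class 3 ligands split. Sema3f had 1.24, 1.31, 1.17 and 1.61 CPM in positive cells, against 0.5003, 0.893, 0.551 and 0.683 CPM in EV_RIP, without overlap (log2 fold change 1.01, SE 0.27, adjusted p = 0.024 by edgeR). Its neighbour Sema3b (ENSMUSG00000057969, chromosome 9, 107597674 to 107609229) had 0.421, 1.23, 0.709 and 0.632 CPM in positive cells, against 0.125, 0.216, 0.324 and 0.145 CPM in EV_RIP. These values rest on 115 counts over the positive libraries and 55 over the controls, and the groups did not overlap (log2 fold change 1.84, SE 0.48, adjusted p = 0.0197 by edgeR). Sema3e had 4.02, 4.32, 3.00 and 3.51 CPM in positive cells, against 2.77, 2.47, 2.91 and 1.93 CPM in EV_RIP. All positive libraries were above all controls, the opposite of its direction in shSmndc1, but the gene did not pass (log2 fold change 0.56, SE 0.21, adjusted p = 0.0752 by edgeR). Sema3a (ENSMUSG00000028883, chromosome 5, 13125414 to 13602565), the classical repellent of axons, had 19.6, 25.6, 12.4 and 16.0 CPM in positive cells, against 11.8, 18.7, 11.1 and 0.0621 CPM in EV_RIP. EV_RIP replicate 4 held 3 counts, where the other controls held 566 to 1903. The groups overlapped, and the log2 fold change was 0.82 (SE 0.72, adjusted p = 0.447 by edgeR) with that library and 0.41 (adjusted p = 0.389 by edgeR) without it. The 18 genes that did not pass, Nrp2 among them, had log2 fold changes of -0.74 to 1.00. Nrp2 had 15.5, 7.14, 9.05 and 5.66 CPM in positive cells, against 8.44, 7.27, 11.04 and 20.9 CPM in EV_RIP (log2 fold change -0.34, adjusted p = 0.569 by edgeR).

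The calls of 3 genes, Plxna2, Sema4b and Sema6a, held under all 13 other settings. The number of genes called higher was 4 without EV_RIP replicate 1, 5 without EV_RIP replicate 3 or positive replicate 2, and 6 without positive replicate 3. The count over all genes fell in the same settings, to 1565, 1868, 1258 and 2073, against 3286 with all libraries. Without EV_RIP replicate 4, the lowest control for 16 of the 29 genes, 7 were higher and 0 lower. Plxna4, Plxnb2, Sema6c and Sema6d then no longer passed, while 12.1% of all genes passed in either direction, against 17.4% with all libraries. Sema6d also missed the threshold without EV_RIP replicate 3, positive replicate 2 or positive replicate 3, with log2 fold changes over all settings of -0.64 to -0.41. Malat1 moved with this comparison, at 287 to 670 CPM in positive cells, against 109 to 286 CPM in EV_RIP (log2 fold change 1.33, adjusted p = 0.00779 by edgeR). Rn7sk was at 2.44 to 4.68 CPM in positive cells, against 5.24 to 14.2 CPM in EV_RIP, apart but not past the threshold (log2 fold change -1.51). The fibroblast marker Col1a1 (2.09) and the Schwann cell marker S100b (1.72) were higher, both under 1 CPM, as were the beta cell markers Ins1, Ins2, Mafa and Iapp, and the neuron marker Snap25 was lower. Duct markers, mostly Spp1, summed to 34.8 to 78.1 CPM in positive cells, against 10.2 to 14.6 CPM in EV_RIP, and endothelial markers to between 1.58 and 4.63 CPM in positive cells, against 1.23 to 2.12 CPM in EV_RIP. Of the 3 endothelial markers tested, 1 was called higher in positive cells, Esam (log2 fold change 2.17). The part of these RNAs and markers in the results was not tested.

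**Figure D3:**
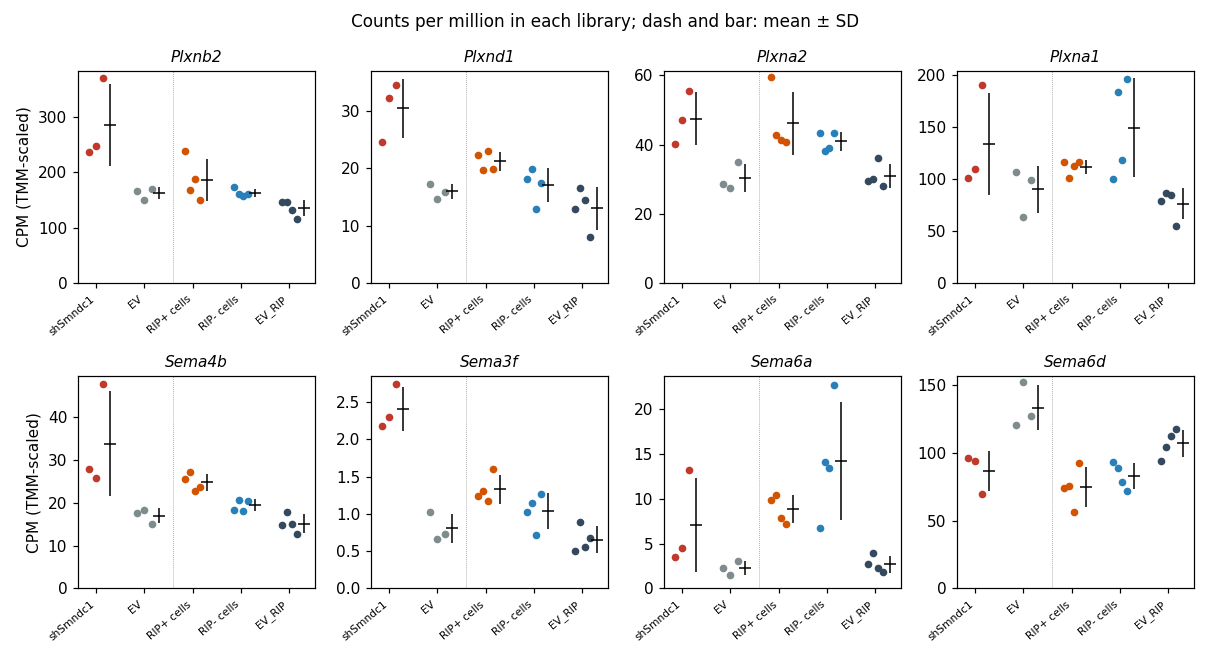
CPM of 8 genes in each library by group (points), with the group mean (dash) and SD (bar); the dotted vertical line separates the 2 experiments. Plxnb2, Plxnd1, Plxna2, Sema4b and Sema3f are higher and Sema6d is lower in shSmndc1 than in EV and in positive cells (RIP+) than in EV_RIP, while Sema6a and Plxna1 reach their highest group means in negative cells (RIP-).

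The remaining genes passed in no comparison. Plxna3, a partner of Nrp2, had 36.0 to 66.5 CPM in shSmndc1 and 40.03 to 54.7 CPM in EV, and 29.6 to 40.4 CPM in positive cells, 28.5 to 39.5 CPM in negative cells and 29.2 to 38.6 CPM in EV_RIP, overlapping throughout. Sema5a, a membrane semaphorin with thrombospondin repeats, lay at 28.0 to 33.5 CPM in shSmndc1 and 23.5 to 33.4 CPM in EV, and at 6.78 to 21.2 CPM in positive cells, 5.13 to 21.5 CPM in negative cells and 8.08 to 35.2 CPM in EV_RIP. Sema3g, Sema4a, Sema4d and Sema4f lay between 1.55 and 10.98 CPM in every library. Of these 4, only Sema4a had groups apart, at 3.54 to 4.57 CPM in shSmndc1 and 2.28 to 3.25 CPM in EV (log2 fold change 0.49, adjusted p = 0.172 by edgeR). Plxnb1, the receptor of Sema4d, had 2.73 to 3.38 CPM in positive cells, against 0.311 to 2.93 CPM in EV_RIP. Plxnb3 had 0.532 to 0.736 CPM in shSmndc1 and 0.136 to 0.319 CPM in EV, apart but not past the threshold (log2 fold change 1.33, adjusted p = 0.0599 by edgeR). Plxnc1, Sema3d and Sema5b stayed at or under 1.57 CPM.

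The comparisons of shSmndc1 with EV and of positive cells with EV_RIP have separate controls and can be set side by side. Positive cells were also selected by the reporter, so knockdown and selection cannot be told apart in their comparison. Of the 28 genes tested in both, 5 were called higher in both: Plxna2, Plxnb2, Plxnd1, Sema3f and Sema4b. They make up 83.3% of the 6 called higher in shSmndc1 and 50% of the 10 called higher in positive cells. Over all 17891 genes tested in both, the shared calls were 52.2% of those higher in shSmndc1 and 43.8% of those higher in positive cells. Sema6d was 1 of the 2 genes called lower in shSmndc1 and the only one in positive cells.

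A fit over all 18 libraries tested the effect in shSmndc1 minus the effect in positive cells. Of 20036 genes, 0 passed (0%), with 861 at an unadjusted p under 0.05, and 0 of 29 semaphorin, plexin and neuropilin genes passed, with 3 at an unadjusted p under 0.05. Sema3e came closest, with a difference of -1.38 on the log2 scale (SE 0.31, adjusted p = 0.928 by edgeR), and DESeq2 called it (adjusted p = 0.0241), 1 of 5 genes that it called. For Sema6b the difference was 0.78 (SE 0.30, adjusted p = 0.998 by edgeR).

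The third comparison set reporter-negative knockdown cells against the same EV_RIP libraries, so its values and those of positive cells share their controls. Of 29 genes, 2 were higher, Sema6a and Plxna1, and 0 were lower by edgeR. At an unadjusted p under 0.05 there were 11 in either direction, where all genes gave 33.2%. DESeq2 called 6 higher and 0 lower, where it called 20.4% of all genes in either direction. Over all 18897 genes, 8.17% were called higher and 5.69% lower. The median log2 fold change was 0.28 for the 29 genes and -0.009 for all genes. The groups did not overlap for 5 genes that were higher and 1 that was lower, where all genes gave 7.24% and 7.2%.

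Sema6a had 6.70, 14.1, 13.5 and 22.6 CPM in negative cells, against 2.77, 3.99, 2.27 and 1.82 CPM in EV_RIP. Every negative library was above every control, the lowest being replicate 1 (log2 fold change 2.38, SE 0.33, adjusted p = 0.00647 by edgeR). Plxna1 (ENSMUSG00000030084, chromosome 6, 89316314 to 89362620) had 99.6, 184, 118 and 196 CPM in negative cells, against 78.7, 86.5, 85.0 and 54.5 CPM in EV_RIP. The groups were apart, with replicates 2 and 4 high (log2 fold change 0.97, SE 0.20, adjusted p = 0.0135 by edgeR). Other genes called in positive cells did not pass here. Sema4b had 18.3, 20.8, 18.03 and 20.5 CPM in negative cells, above all 4 controls but not past the threshold (log2 fold change 0.36, adjusted p = 0.0682 by edgeR). Likewise Plxna2 had 43.4, 38.2, 39.1 and 43.4 CPM in negative cells, above all controls (log2 fold change 0.41, adjusted p = 0.0568 by edgeR). Sema6d had 93.1, 89.1, 78.5 and 72.1 CPM in negative cells, below all controls (log2 fold change -0.36, adjusted p = 0.0894 by edgeR). Plxnb2, at 174, 160.0, 157 and 160.1 CPM in negative cells, was above all controls with a log2 fold change of 0.27 (adjusted p = 0.161 by edgeR).

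Without negative replicates 3 and 4 together, which leaves 2 negative libraries, 0 of the genes and 4 genes over all passed. Sema6a then had a log2 fold change of 1.92 (adjusted p = 0.125 by edgeR), against 2.38 with all libraries. Plxna1 had one of 0.89 (adjusted p = 0.167 by edgeR), against 0.97 with all libraries. Sema6a passed in the 13 other settings, with log2 fold changes of 1.92 to 2.63 over all 14, and Plxna1 in 12 of 14, with 0.81 to 1.12. Plxna1 also missed the threshold without negative replicate 4, where 0.821% of all genes passed. Without negative replicate 1, 6 genes were higher and 3 lower of 29, while 29.7% of all genes passed in either direction. Without EV_RIP replicate 2, 5 were higher and 0 lower, while 14.2% of all genes passed in either direction. With the replicate number as a block, 7 were higher and 0 lower, while 24.3% of all genes passed in either direction. The share of all genes called higher in these settings is not given here. Malat1 and Rn7sk moved with these calls. Malat1 had 450 to 688 CPM in negative cells, against 109 to 286 CPM in EV_RIP (log2 fold change 1.49, adjusted p = 0.0112 by edgeR). Rn7sk was higher too (2.401, adjusted p = 0.0412 by edgeR). The fibroblast marker Col1a1 was higher, at under 0.6 CPM, and of 4 neuron markers Snap25 and Tubb3 were lower. Endothelial markers moved in the same direction in these cells. All 3 of 5 that could be tested, Pecam1, Tek and Esam, were higher, their summed level was 2.20 to 8.54 CPM in negative cells and 1.23 to 2.12 CPM in EV_RIP, and Emcn was at 0 in every library. The part of these RNAs and markers in the result was not tested beyond leaving out libraries.

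The last comparison set positive against negative cells. Without regard to replicate numbers 0 of 29 genes passed by edgeR or DESeq2, while 0 (0%) of 18897 genes passed by edgeR and 312 by DESeq2. At an unadjusted p under 0.05 there were 3 of the 29, where all genes gave 12.2%. The groups did not overlap for 2 genes, both higher in positive cells, where 3.33% of all genes were higher in that way and 6.58% were apart in either direction. The labels do not say that replicate numbers mark shared cultures. The numbers were taken to pair the sorted libraries because same-numbered libraries deviated together (r = 0.70, 0.43, 0.20 and 0.42). Positive replicate 4 and negative replicate 2, of unlike numbers, gave r = 0.37. With the number as a block, the fit of all 12 libraries called 0 of the 29 genes. The block fit of the 8 sorted libraries called 2 genes higher in positive cells, Sema3a and Sema4c, and 0 lower. In that fit 8.43% of 17994 genes were called, 3.71% higher and 4.72% lower.

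Sema3a had 19.6, 25.6, 12.4 and 16.0 CPM in positive replicates 1 to 4, against 11.7, 6.60, 3.61 and 8.42 CPM in the negative cells of the same numbers. It was higher in 4 of 4 pairs, and all positive libraries were above all negative ones (log2 fold change 1.31, SE 0.19, adjusted p = 0.00127 by edgeR). Leaving out each pair in turn, which was chosen after the data had been seen, gave log2 fold changes of 1.06 to 1.55 and adjusted p of 0.00161 to 0.0131. Sema4c had 38.0, 27.7, 26.7 and 22.2 CPM in positive cells, against 25.4, 21.5, 14.2 and 18.6 CPM in negative cells. It was higher in 4 of 4 pairs while the groups overlapped (log2 fold change 0.51, SE 0.12, adjusted p = 0.0177 by edgeR), and it missed the threshold without pair 1 (0.49, adjusted p = 0.0585 by edgeR) or pair 2 (0.57, adjusted p = 0.0751 by edgeR). Sema4b was higher in 4 of 4 pairs at the edge of the threshold (log2 fold change 0.36, SE 0.11, adjusted p = 0.0516 by edgeR). Of the 29 genes 9 were higher in 4 of 4 pairs, and of all genes in the fit 15.2% were. Without pair 1, Sema6a (log2 fold change -0.94, adjusted p = 0.0202 by edgeR) and Plxna1 (-0.56, adjusted p = 0.026 by edgeR) were lower in positive cells; with all 4 pairs, both were lower in 3 of 4 pairs and did not pass. Smndc1 itself was lower in positive than in negative cells in this fit (log2 fold change -0.86, adjusted p = 0.000954 by edgeR).

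**Figure D4:**
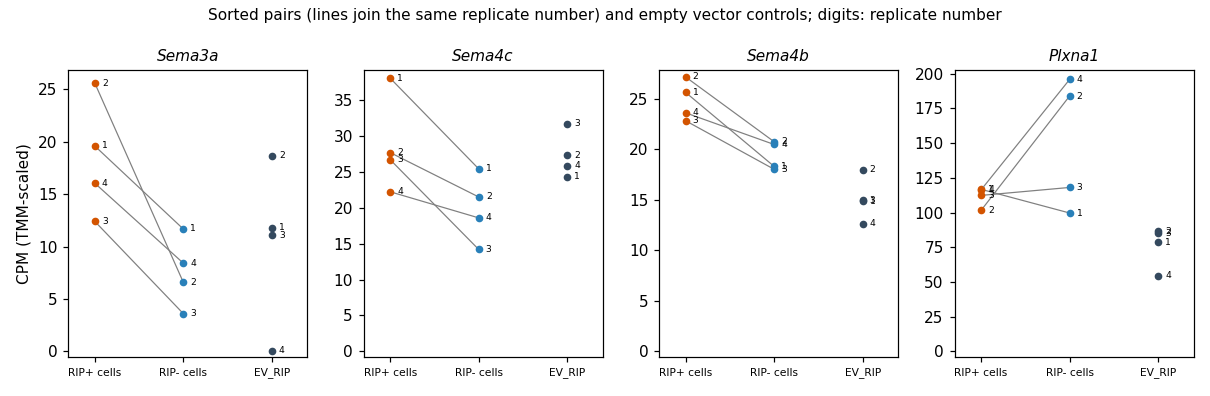
CPM of Sema3a, Sema4c, Sema4b and Plxna1 in positive (RIP+) and negative (RIP-) cells, with lines joining the same replicate number, and in the EV_RIP controls; digits give the replicate number. Lines fall from positive to negative cells in all 4 pairs for Sema3a, Sema4c and Sema4b, and rise in 3 of 4 for Plxna1; the EV_RIP point at the bottom of the Sema3a panel is replicate 4.

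Other genes of the pathway were read from lists of co-receptors, intracellular effectors, VEGF ligands, processing proteases and other guidance systems. Of the 14 co-receptors, 10 were tested in the first experiment, and 2 were higher in shSmndc1 and 0 lower (median log2 fold change 0.56). Over all genes, 7.22% were called higher and 7.5% lower there. Nrcam, an adhesion molecule that pairs with Nrp2, averaged 7.89 ± 1.6 CPM in shSmndc1 and 3.94 ± 0.89 CPM in EV (SD, n = 3; log2 fold change 1.00, adjusted p = 0.0269 by edgeR). Cd72, a receptor of Sema4d on B cells, was the other (0.44, adjusted p = 0.0479 by edgeR). Cd72 shares 41.6% of its exonic bases with Tesk1 on the opposite strand. The counting's strand setting is not given, so its value is uncertain to that extent. Nrcam was also the 1 co-receptor of 11 called in positive cells (log2 fold change 0.99, adjusted p = 0.0212 by edgeR), where 8.47% of all genes were higher and 8.92% lower. In negative cells the 1 call was Met, a receptor kinase that couples to B-type plexins (log2 fold change 4.20, adjusted p = 0.0105 by edgeR), at 0.445 to 1.11 CPM in negative cells and 0 to 0.0810 CPM in EV_RIP. Of all genes, 8.17% were higher in negative cells and 5.69% lower.

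Effectors were called in both directions, at shares near those of all genes in shSmndc1. Of 34 listed, 31 were tested in shSmndc1, where 3 were higher and 3 lower, against 7.22% and 7.5% of all genes (median log2 fold change 0.05). In the second experiment 32 were tested. Positive cells had 4 higher and 4 lower (median -0.07), against 8.47% and 8.92% of all genes. Negative cells had 3 higher and 4 lower (median -0.04), against 8.17% and 5.69% of all genes. Rnd2, of the Rnd GTPases that bind plexins, averaged 32.4 ± 7.0 CPM in shSmndc1 and 12.8 ± 0.77 CPM in EV (log2 fold change 1.34, adjusted p = 0.00579 by edgeR), and it was higher in positive cells too (0.84, adjusted p = 0.0109 by edgeR). Crmp1, a collapsin response mediator, was higher in shSmndc1 (0.64, adjusted p = 0.0141 by edgeR), as was Fyn, a kinase of the Sema3a pathway (0.58, adjusted p = 0.0149 by edgeR). Cdk5, a kinase of the Sema3a pathway, was lower in shSmndc1 (-0.70, adjusted p = 0.0128 by edgeR), in positive cells (-0.62, adjusted p = 0.0157 by edgeR) and in negative cells (-0.70, adjusted p = 0.0151 by edgeR). Gipc1, an adaptor of neuropilin and plexin tails, was lower in positive cells by a log2 fold change of -0.61 (adjusted p = 0.0134 by edgeR), and Mical2, an actin-oxidising enzyme, by -0.73 (adjusted p = 0.0148 by edgeR). Mical2 was lower in negative cells too (-0.72, adjusted p = 0.0205 by edgeR). There Rnd1, a GTPase that binds plexins, was higher (0.57, adjusted p = 0.0227 by edgeR), and so was the kinase Pak1 (2.87, adjusted p = 0.0307 by edgeR), in groups that overlapped.

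The 5 VEGF ligands were all tested: 1 was higher and 2 lower in shSmndc1, 2 higher and 1 lower in positive cells, and 1 higher and 0 lower in negative cells. All genes gave 7.22% higher and 7.5% lower in shSmndc1, 8.47% and 8.92% in positive cells, and 8.17% and 5.69% in negative cells. Vegfa averaged 27.0 ± 3.5 CPM in shSmndc1 and 70.5 ± 17 CPM in EV (log2 fold change -1.38, adjusted p = 0.00606 by edgeR). Vegfb was lower in shSmndc1 too (-0.46, adjusted p = 0.0434 by edgeR), and Vegfd was higher in positive cells (1.13, adjusted p = 0.0383 by edgeR). Vegfa was lower in positive cells as well (-0.50, adjusted p = 0.0491 by edgeR), in groups that overlapped. Pgf, the placental growth factor, was higher in shSmndc1 (2.82, adjusted p = 0.0164 by edgeR), in positive cells (1.72, adjusted p = 0.0292 by edgeR) and in negative cells (1.93, adjusted p = 0.0241 by edgeR), at levels of 0.546 to 2.76 CPM in the knockdown libraries and 0.117 to 0.530 CPM in the controls. Of 6 proteases 4 were tested, and Adam10, a membrane sheddase, was the 1 called in each comparison, with log2 fold changes of -0.76 in shSmndc1 (adjusted p = 0.0228 by edgeR), -0.72 in positive cells (adjusted p = 0.00965 by edgeR) and -0.62 in negative cells (adjusted p = 0.0235 by edgeR).

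Among 39 genes of the Slit, netrin and ephrin systems, those called were all higher: 4 of 25 tested in shSmndc1 (median log2 fold change 0.44), 5 of 27 in positive cells (median 0.20) and 5 of 27 in negative cells (median 0.32). Over all genes, 7.22% were higher and 7.5% lower in shSmndc1, 8.47% and 8.92% in positive cells, and 8.17% and 5.69% in negative cells. The netrin receptor Dcc averaged 1.62 ± 0.31 CPM in shSmndc1 and 0.414 ± 0.027 CPM in EV (log2 fold change 1.97, adjusted p = 0.00842 by edgeR) and was higher in positive cells (2.01, adjusted p = 0.0132 by edgeR). The other calls in shSmndc1 were the ephrin Efna2 (1.55, adjusted p = 0.0157 by edgeR), the ephrin receptor Ephb2 (0.66, adjusted p = 0.0193 by edgeR) and the netrin receptor Unc5a (0.74, adjusted p = 0.0439 by edgeR). Robo2, a Slit receptor, averaged 54.9 ± 16 CPM in positive cells, against 24.0 ± 6.9 CPM in EV_RIP (SD, n = 4; log2 fold change 1.19, adjusted p = 0.00779 by edgeR). Efnb3, an ephrin, was higher in positive cells (1.36, adjusted p = 0.0388 by edgeR) and in negative cells (2.06, adjusted p = 0.0137 by edgeR), and Epha2, an ephrin receptor, in negative cells (3.30, adjusted p = 0.0125 by edgeR) at under 1 CPM. The netrin receptor Unc5c was higher in positive cells (0.60, adjusted p = 0.0422 by edgeR). In negative cells the Slit receptor family member Robo3 (1.57, adjusted p = 0.0241 by edgeR) and the netrin receptor Unc5b (1.27, adjusted p = 0.0291 by edgeR) were higher.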

How the data were processed

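RNA from 18 libraries of alphaTC1 cells was sequenced as 75 bp paired reads from stranded mRNA libraries, per the labels' protocols. STAR 2.7.5a, Picard 2.19.2, DESeq2 1.30.0 and the builds GRCm38 and mm10 are named in the submitters' processing notes; for the read counter and whether it used strand, the answer is not given in the sources used here. The authors deposited raw counts per gene and FPKM values. The deposited FPKM equal the counts divided by gene length and median-of-ratios size factors, to within 2.2e-15 on the log2 scale. Counts gave all tests and CPM, with TMM-scaled library sizes, and FPKM served only to compare levels between genes.

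edgeR 4.0.16 (R 4.3.3) fitted quasi-likelihood models after filterByExpr by group and TMM scaling: 6 libraries for the first experiment, 12 for the second, and 18 for the difference of effects. P-values were adjusted by Benjamini-Hochberg over all genes tested, with a threshold of 0.05. The steps were tested on simulated data. Same-numbered positive and negative libraries deviated together (r = 0.70, 0.43, 0.20 and 0.42 for numbers 1 to 4), so their numbers were taken to pair them. No 2 replicates agreed within sampling noise; the lowest chi-square per gene was 16.4 over 24 replicate pairs. Alternatives were RLE scaling, DESeq2 1.42.0, no filter beyond 1 count, a replicate block, fits of only the libraries compared, and leaving out libraries. Leaving out each sorted pair in turn was added after the data had been seen.

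The genes, the pathway lists and the marker lists were chosen with earlier results of these data known. Values per library are given for genes past the threshold in any comparison and for the 2 highest ligands, plexins and neuropilins by FPKM. From each other list, up to 4 genes past the threshold with the smallest p are named per comparison. Sema3a was named from the paired fit, after its values had been seen. Promoter sequences came from RefSeq, and gene positions from the GENCODE annotation, which matched the deposited coordinates for all 31 genes.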

Additional observations from a re-analysis of the deposited data

Results flagged for a closer look

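In groups of 4 libraries, a library was singled out where its gap to the nearest of the others, divided by the whole range, was above Dixon's 95% critical value. Chance flags about 1 group in 20, and 7 of 87 sets of gene and group were singled out. In positive cells these were Plxna2 in replicate 1, with 59.7 CPM against 40.9 to 42.8 CPM in the other 3, Sema7a in replicate 1, with 1.85 CPM against 1.23 to 1.28 CPM, Sema6c in replicate 2, with 3.53 CPM against 5.14 to 5.46 CPM, and Plxnb1 in replicate 3, with 3.38 CPM against 2.73 to 2.77 CPM. Plxna2 was still called in positive cells without replicate 1. In negative cells Plxnc1 had 1.20 CPM in replicate 3, the shallowest library, against 0.235 to 0.357 CPM in the others. In EV_RIP, Plxnc1 had 0.828 CPM in replicate 4 against 0.194 to 0.229 CPM, and Sema3g had 6.40 CPM in replicate 1 against 5.30 to 5.44 CPM. Neither Plxnc1 nor Sema3g was called in any comparison.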

How the results depend on the processing

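RLE scaling moved no count of calls by over 1.5 times. Over all genes, shSmndc1 against EV gave 4165 calls without the filter and 4070 by DESeq2, against 2681. Same-numbered libraries of shSmndc1 and EV gave r = -0.03, -0.02 and 0.30, and were not taken as pairs. For EV_RIP the results differed by number. Numbers 1 to 4 gave r = 0.24, 0.49, -0.04 and -0.06 with positive cells. With negative cells they gave 0.28, 0.57, -0.22 and -0.32. The main fit therefore held no block. With the number as a replicate block, 7 of the semaphorin, plexin and neuropilin genes were higher and 1 was lower in shSmndc1. In that fit 15.5% of all genes passed in either direction. The block gave 5079 calls over all genes for positive cells against EV_RIP, 4597 for negative cells against EV_RIP with 7 of these genes higher, 78 for positive against negative cells in the 12-library fit, and 1 for the difference of effects. In the block fit of the 8 sorted libraries 1517 genes passed, 2 of them semaphorins. For negative cells against EV_RIP, 1289 genes passed with only the 8 libraries compared and 4 without negative replicates 3 and 4 together, which left 0 of these genes higher; DESeq2 gave 6 higher. For positive against negative cells, 150 genes passed without the filter and 312 by DESeq2. For the difference of effects, 5 passed without the filter and 5 by DESeq2, 1 of them lower among these genes. Leaving out 1 library at a time gave 181 to 3336 calls over all genes for shSmndc1 against EV, 1258 to 3586 for positive and 159 to 5831 for negative cells against EV_RIP, and 0 to 517 for positive against negative cells. Among the semaphorin, plexin and neuropilin genes it gave 0 to 8 higher and 0 to 1 lower in shSmndc1, 4 to 10 higher and 0 to 1 lower in positive cells, and 1 to 6 higher and 0 to 3 lower in negative cells. Without each sorted pair, the paired fit gave 1580, 272, 1078 and 853 calls (pairs 1 to 4 left out), with 1 to 2 of these genes higher and 0 to 2 lower. Values that changed sign were Sema3a in negative cells against EV_RIP, at 0.0090 without EV_RIP replicate 2 (its range over the libraries left out was -0.84 to 0.0090), and Plxna4 in positive against negative cells, below 0 without negative replicate 1, negative replicate 3 or positive replicate 4 (range -0.043 to 0.22); none of these values passed the test, and the cause was not tested. Negative replicate 3, with 8084574 counts, limits genes at low levels: its 0.721 CPM of Sema3f is 6 counts.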

Other observations

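Markers of other islet and pancreas cells gave these summed levels over all libraries: up to 0.357 CPM for 2 delta cell markers, 11.5 CPM for 5 fibroblast markers, 18.7 CPM for 5 leukocyte markers, 7.66 CPM for 4 Schwann cell markers and 20.1 CPM for 4 acinar markers. The 8 beta cell markers summed to 48.9 to 54.7 CPM in shSmndc1 and 57.3 to 59.7 CPM in EV, and to 65.5 to 94.7 CPM in positive cells, 58.1 to 82.0 CPM in negative cells and 55.8 to 77.5 CPM in EV_RIP. Most of each sum was Nkx6-1, at 40.4 to 77.3 CPM. Of the beta cell markers tested, 2 of 4 were called higher in shSmndc1 (median log2 fold change 1.296), 4 of 5 in positive cells (median 2.23) and 0 of 5 in negative cells by edgeR (median 0.67). The 4 neuron markers, genes that endocrine cells also express, summed to 424 to 494 CPM in shSmndc1 and 505 to 665 CPM in EV, and to 365 to 502 CPM in positive cells, 307 to 524 CPM in negative cells and 463 to 628 CPM in EV_RIP.

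Ins2, an insulin gene, averaged 2.74 ± 0.77 CPM in shSmndc1 and 0.286 ± 0.20 CPM in EV (SD, n = 3 each), and 10.1 ± 4.1 CPM in positive cells, 2.74 ± 1.6 CPM in negative cells and 1.74 ± 1.3 CPM in EV_RIP (SD, n = 4 each). Gcg, which encodes glucagon, averaged 15987 ± 2329 CPM in positive cells, 9254 ± 1905 CPM in negative cells and 9009 ± 2039 CPM in EV_RIP. In the paired fit of the sorted cells, Rnd2 was higher in positive than in negative cells (log2 fold change 0.76, adjusted p = 0.00131 by edgeR, higher in 4 of 4 pairs).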
